A study of Rattus norvegicus with 10 samples.

Results

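Oxidative phosphorylation is carried out in the inner mitochondrial membrane by 5 protein complexes, and most of their subunits are encoded by nuclear genes. The nuclear genes of these complexes were read here in the renal cortex of PCK rats, a model of autosomal recessive polycystic kidney disease, with 5 male and 5 female rats and 1 RNA-seq library per rat. A gene was a member if its row was protein-coding, lay outside the mitochondrial chromosome and had a symbol beginning with Nduf followed by a, b, c, s or v, with Uqcr, with Cox4 to Cox8 or with Atp5, or equal to Sdha, Sdhb, Sdhc, Sdhd or Cyc1. This gave 92 of the 32545 genes in the table, of which 22293 are protein-coding. The 92 rows carry 89 symbols, because Atp5f1, Cox6b1 and Ndufa13 each stand under 2 Ensembl identifiers. They comprise 34 genes of complex I, 7 complex I assembly factors whose symbols begin with Ndufaf, 4 of complex II, 8 of complex III, 21 of complex IV with Ndufa4 and Ndufa4l2 counted among them, 16 of complex V, and Atp5s and Atp5sl, which were not counted among the subunits of complex V.

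All 10 rats were of the strain PCK/CrljCrl-Pkhd1pck/Crl and carry the Pkhd1 mutation that causes the cystic disease, so both groups were cystic and the only contrast is sex. The labels give an age of 12 to 14 weeks and the tissue as kidney, while the study's methods give a younger age range, and snap-frozen cortex as the tissue. The rats came from 2 litters that did not share parents. The litter of each rat was not used here, no batch is labelled, and no rat without the mutation was sequenced. The p-values below rest on the spread between rats within each sex.

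Electrons from NADH enter at complex I (NADH dehydrogenase) and those from succinate at complex II (succinate dehydrogenase), pass through complex III (the cytochrome bc1 complex) and cytochrome c to complex IV (cytochrome c oxidase), and the proton gradient built on the way drives complex V (ATP synthase). Proximal tubule and thick ascending limb cells are rich in mitochondria, since they power sodium reabsorption by oxidation. Many nuclear genes of the complexes share promoter elements bound by NRF-1, by the ETS factor GABP and by YY1, and are known to be expressed together.

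The libraries held 13912569 to 20285911 reads on genes. Members took 1.70% to 2.25% of these reads, and genes of the mitochondrial chromosome took 14.3% to 26.8%, with the highest share in female 2. Of the 8 proximal tubule markers all were detected, and their summed FPKM (sequenced fragments scaled to gene length and library depth) was 3696 to 6627 in the males and 4178 to 7982 in the females, with female 4 highest. Fibroblast markers, 5 genes, summed to 244 to 328 FPKM in the males and 71.1 to 229 in the females, without overlap, and female 4 was lowest. The 5 intercalated cell markers summed to 134 to 205 FPKM in the males and 215 to 337 in the females, again without overlap. The 5 thick ascending limb markers summed to 1108 to 1648 FPKM in the males and 1247 to 1876 in the females, with overlap, and all 5 had a log2 fold change above 0, 2 of them called (Kcnj1 and Egf). The distal convoluted tubule markers summed to 205 to 332 FPKM in the males and 314 to 546 in the females, with 3 of 3 tested above 0 and 1 called (Calb1), while Pvalb had no read in any library. The 5 principal cell markers summed to 167 to 254 FPKM in the males and 194 to 284 in the females, all 5 with a log2 fold change above 0 and none called. The macrophage markers summed to 84.1 to 168 FPKM in the males and 40.1 to 97.8 in the females, the T cell markers to 30.5 to 56.3 and 15.7 to 40.8, and the B cell markers to 3.87 to 14.05 and 0.811 to 14.5, each with overlap. The part of these marker differences in the results below was not tested, and in whole cortex fewer cells of a type and less RNA per cell cannot be told apart.

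Of the 92 members, 88 reached the filter of a mean of 0.1 FPKM, out of 17631 genes that did. The other 4 were Ndufb4l1, Cox6c1 and Cox7b2, which had no read in any library, and Cox8c, with 1 read in each of 3 libraries. Mean levels over the 10 libraries ran from 0.921 FPKM for Cox6a2 to 1757 FPKM for Atp5b, the catalytic beta subunit of ATP synthase. Of the 88, 60 had a mean of at least 100 FPKM and 11 a mean under 10 FPKM. No member passed an adjusted p of 0.05 in either direction (limma on log2(FPKM + 0.1), Benjamini-Hochberg over all genes tested), where 424 genes passed (2.4% of those tested): 223 higher in females (1.26%) and 201 lower (1.14%), and 1.32% passed with a log2 fold change of at least 1 as well. limma-voom on the reads recovered from the FPKM called no member either.

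Most members nevertheless had a higher mean in females by a small margin. The log2 fold change, female over male, was above 0 for 81 of 88 members (92.0%), beside 48.8% of all genes tested. Its median was 0.15 over the members, with quartiles at 0.08 and 0.26, and -0.01 over all genes; after quantile normalization it was 0.08 (all genes 0.01), and without female 4 it was 0.10. At an unadjusted p under 0.05, 15 members (17.0%) were higher in females, beside 7.67% of all genes, and none was lower, beside 8.07%; limma-voom put 19 members higher at this line and 1, Cox6b2, lower. The male and female ranges of FPKM did not overlap for 1 member that was higher in females (1.14%, beside 2.5% of all genes) and for none that was lower (beside 2.6%). The 95% interval of the log2 fold change lay within 1 of 0 for 81 of the 88, so a change of 2-fold or more lay outside the interval for those genes. The members are not independent of one another: they come from the same 10 libraries and, as described further on, tend to be high or low in the same ones.

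**Figure D1:**
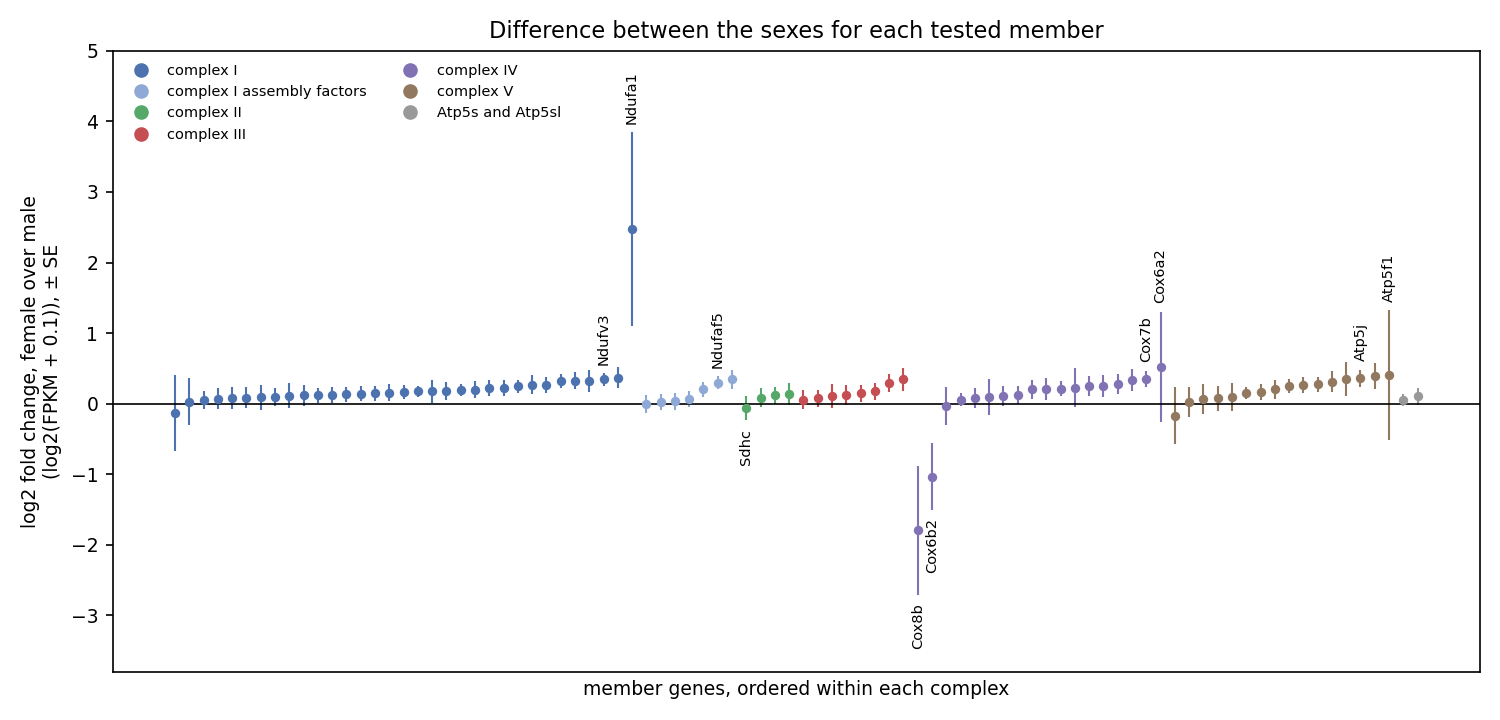
Log2 fold change, female over male, of each of the 88 tested members on the log2(FPKM + 0.1) scale, ordered within each complex, with bars of ± 1 SE. Most points lie just above 0 around the median of 0.15, and the wide bars belong to Ndufa1, Cox6a2, Cox6b2, Cox8b, the Atp5f1 rows and the Ndufa13 row ENSRNOG00000021688, which have few reads or very unequal values.

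Summed over its member genes, each complex had a higher mean in females, and the male and female ranges overlapped in every one. Complex I summed to 4296 ± 380 FPKM in males and 4945 ± 564 in females (mean ± SD, n = 5 each), a ratio of 1.15. For complex II the ratio was 1.05 (1160 ± 130 and 1222 ± 245 FPKM), and for complex III 1.11 (1432 ± 120 and 1586 ± 216 FPKM). Without female 4 the complex II ratio was 0.982, below 1, whereas leaving out any 1 library kept those of complexes I, III, IV and V above 1 (lowest 1.05, for complex III). For complex IV it was 1.17 (5756 ± 667 and 6722 ± 661 FPKM), and for complex V 1.15 (6871 ± 505 and 7919 ± 945 FPKM). All 92 members together summed to 17690 to 21949 FPKM in males and to 19774 to 26173 in females, with means of 19637 ± 1684 and 22528 ± 2321. Female 4 held the highest sum of complexes I, II, III and V, and female 2 that of complex IV. The sums kept the Ndufa1 row (142 FPKM in female 2 and 60.8 in female 4) and the Atp5f1 rows. These could not be read reliably, as described below, and no sum or count without them was made.

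**Figure D2:**
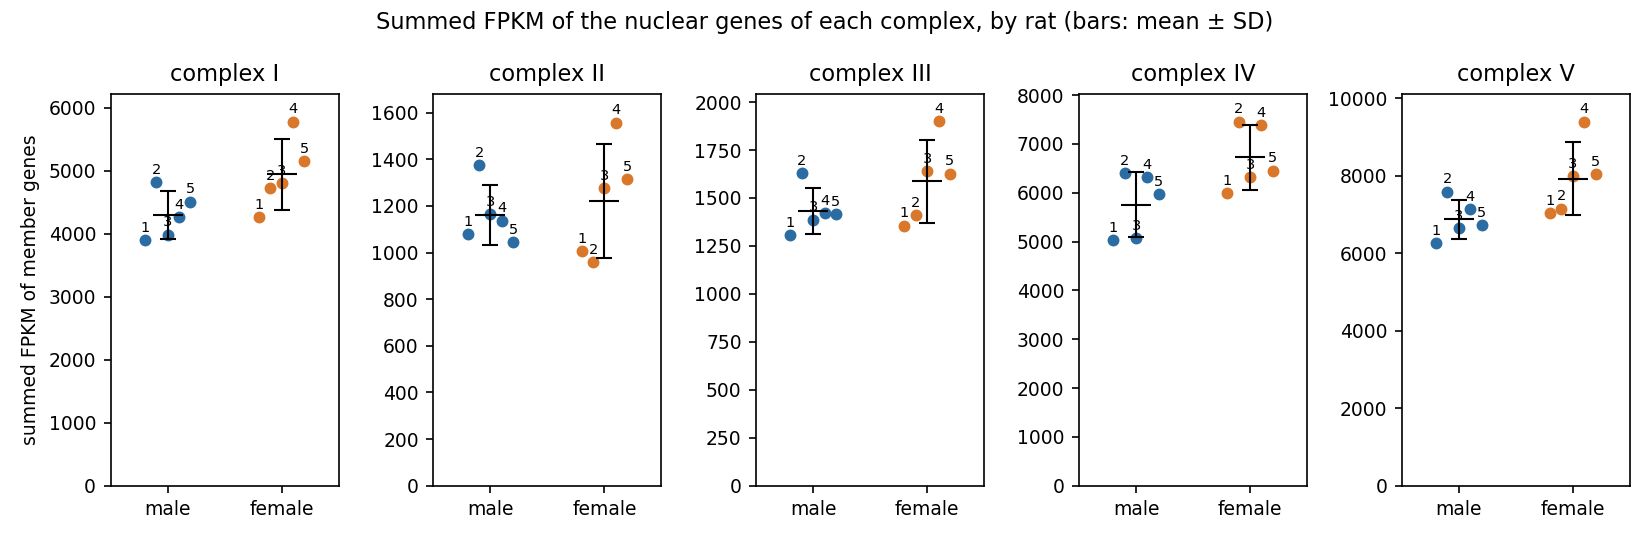
Summed FPKM of the nuclear member genes of complexes I to V (vertical axes from 0), with 1 point per rat labelled by its number, blue for male and orange for female, and black bars for mean ± SD. Female means lie above male means in each panel, and the points of the sexes overlap in all 5.

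Complex I, the entry point for electrons from NADH, was measured through 33 of its 34 member genes. Of these 32 had a log2 fold change above 0, with a median of 0.17. At an unadjusted p under 0.05, 7 were higher in females, beside 7.67% of all genes. The 7 core subunits, which hold the flavin and iron-sulfur centres, had a median of 0.15, and the 26 tested accessory subunits a median of 0.17. Ndufs1, the largest subunit, had 112 ± 15.8 FPKM in males and 120.1 ± 25.9 in females (log2 fold change 0.09, SE 0.15, adjusted p = 0.845, limma with Benjamini-Hochberg adjustment). Ndufv1, which carries the flavin, had 133 ± 10.1 FPKM in males and 148 ± 21.5 in females (adjusted p = 0.552). The most abundant complex I gene was Ndufb8, an accessory subunit of the membrane arm, with 282 ± 41.8 FPKM in males and 318 ± 31.1 in females.

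Ndufv3 encodes a small accessory subunit of the NADH-oxidising arm. It was the member of smallest p and the only 1 whose ranges did not overlap, and the 250 bases upstream of its start in RefSeq (build GRCr8, chr20:9613536-9613785, plus strand) are shown for that reason, with capitals marking the NRF-1 letters GCGCANGCG:
Ndufv3: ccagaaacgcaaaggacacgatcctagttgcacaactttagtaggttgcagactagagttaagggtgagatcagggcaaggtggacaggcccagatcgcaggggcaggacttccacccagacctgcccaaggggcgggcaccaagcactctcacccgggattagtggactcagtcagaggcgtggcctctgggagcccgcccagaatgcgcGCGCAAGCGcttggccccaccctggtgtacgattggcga

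Ndufv3 (ENSRNOG00000001182, at 10265806 to 10275304 on chromosome 20 of Rnor_6.0) had 78.5, 83.4, 77.02, 81.6 and 80.7 FPKM in males 1 to 5 and 86.5, 112, 95.4, 113 and 104 FPKM in females 1 to 5. Every female lay above every male, female 1 by the smallest margin. The log2 fold change was 0.34 (SE 0.09, 95% interval 0.15 to 0.53), the adjusted p = 0.0686 by limma and the exact permutation p = 0.00794, two-sided, the smallest that 5 against 5 allows. Without female 1 the adjusted p was 0.0276, and with the replicate number as a block it was 0.131; over 21 alternatives it ran from 0.0276 to 0.160.

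Ndufb10, an accessory subunit of the membrane arm, had 119.9, 143, 118, 135 and 139.6 FPKM in the males and 142, 176, 149.7, 179 and 175 FPKM in the females. Female 1 lay just below male 2, the highest male. Its log2 fold change was 0.32 (SE 0.10, adjusted p = 0.126 by limma). Ndufaf5, an assembly factor that modifies a core subunit, had 11.9, 13.7, 12.6, 13.2 and 16.4 FPKM in the males and 17.2, 16.9, 15.6, 16.7 and 16.5 FPKM in the females. The females were close together, and male 5 alone reached into their range. Its log2 fold change was 0.30 (SE 0.09, adjusted p = 0.126 by limma), and without male 5 it was 0.37 with an adjusted p of 0.0355. The 7 assembly factors as a group had a median log2 fold change of 0.07, with 6 above 0. Ndufaf5 and Ndufaf2 were higher at an unadjusted p under 0.05, as were 7.67% of all genes.

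The Ndufa6 upstream window is shown as that of a member whose highest library was female 2, chosen after its values were seen. Ndufa6, an accessory subunit of the LYR family, had 171, 219, 166, 191 and 206 FPKM in the males and 195, 346, 213, 258 and 239 FPKM in the females. Female 2 was far above the rest, and females 1 and 3 lay among the males (log2 fold change 0.37, adjusted p = 0.262 by limma). Its window (GRCr8, chr7:115750318-115750567, minus strand) has the ETS letters CCGGAAG beginning 190 bases and the NRF-1 letters, on the other strand, beginning 21 bases before the start, both in capitals:
Ndufa6: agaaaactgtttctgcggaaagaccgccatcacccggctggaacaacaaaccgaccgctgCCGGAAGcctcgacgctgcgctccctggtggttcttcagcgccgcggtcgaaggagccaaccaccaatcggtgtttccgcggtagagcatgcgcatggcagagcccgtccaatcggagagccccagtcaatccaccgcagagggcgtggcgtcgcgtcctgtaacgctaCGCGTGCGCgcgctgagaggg

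Ndufa1, an accessory subunit whose gene is on the X chromosome, had the most unequal values of the complex, and was named after they were seen. Its row (deposited length 213 bases) had 0.608, 1.77, 1.63, 0.684 and 1.25 FPKM in the males and 0.5597, 142, 1.67, 60.8 and 1.18 FPKM in the females. Females 2 and 4 stood far above the other 8 libraries, in which it had under 2 FPKM. Whether this row holds all the reads of the gene could not be resolved from the FPKM, so the values were not read as its level. The log2 fold change of 2.47 had an interval of -0.55 to 5.50 and an adjusted p of 0.428 by limma, and it ran from 1.37 to 3.31 without 1 library. The second Ndufa13 row, ENSRNOG00000021688, spans 429 bases, its whole deposited length, as a row without introns does, and had 1 to 12 reads per library. Ndufv3-ps1, whose symbol marks a pseudogene, also spans just its own length.

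Complex II is the succinate dehydrogenase of the citric acid cycle and has no mitochondrially encoded subunit. All 4 of its genes were measured, 3 had a log2 fold change above 0, the median was 0.10 and none reached an unadjusted p of 0.05. Sdha, the flavoprotein that oxidises succinate, had 261 ± 27.9 FPKM in males and 293 ± 68.01 in females (adjusted p = 0.728, limma). Sdhb, the iron-sulfur subunit, had 253 ± 27.1 FPKM in males and 276 ± 40.2 in females (adjusted p = 0.696). Sdhd, a membrane anchor and the gene of lowest level in the complex, had 236 ± 27.1 FPKM in males and 253 ± 44.98 in females. Sdhc, the other anchor and the most abundant, had 380.1, 499, 409, 401 and 359 FPKM in the males and 333, 271, 428, 522 and 448 FPKM in the females. The sexes overlapped widely, with female 2 lowest and female 4 highest of all 10 (log2 fold change -0.06, adjusted p = 0.912 by limma).

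Complex III passes electrons from ubiquinol to cytochrome c. All 8 of its member genes had a log2 fold change above 0, with a median of 0.13. Uqcrq alone was higher at an unadjusted p under 0.05, as were 7.67% of all genes. Uqcrfs1, the Rieske iron-sulfur protein and the most abundant of them, had 299.9 ± 43.1 FPKM in males and 338 ± 40.9 in females (log2 fold change 0.18, adjusted p = 0.541 by limma). Uqcrc1, a core protein, had 203 ± 17.2 FPKM in males and 226 ± 35.00 in females, and Cyc1, cytochrome c1, had 253 ± 29.3 FPKM in males and 278 ± 57.00 in females, with adjusted p-values of 0.613 and 0.753. Uqcrb, a small subunit near the quinone site and the gene of lowest level, had 26.6, 32.7, 21.98, 31.7 and 39.4 FPKM in the males and 33.8, 51.3, 33.8, 36.4 and 37.2 FPKM in the females. Female 2 was highest and male 3 lowest, and male 5 exceeded 4 of the 5 females (log2 fold change 0.35, adjusted p = 0.336 by limma).

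Complex IV reduces oxygen to water, and several of its small nuclear subunits exist as a widely expressed form and a form restricted to muscle, lung or testis. Of its 21 member genes 18 were tested, 15 had a log2 fold change above 0 and the median was 0.21. Only Cox7b was higher at an unadjusted p under 0.05, as were 7.67% of all genes. Cox7b, whose gene is on the X chromosome, had 291, 361, 275, 349.8 and 327 FPKM in the males and 384, 437, 359, 476 and 393 FPKM in the females. Female 3 alone lay within the male range (log2 fold change 0.35, SE 0.12, adjusted p = 0.156 by limma, exact permutation p = 0.0159, two-sided). An antisense gene overlaps Cox7b on the other strand, and whether reads were counted by strand is not given in the sources used here. Cox8a, the most abundant gene of the complex, had 1095 ± 208 FPKM in males and 1289 ± 83.1 in females (log2 fold change 0.25, adjusted p = 0.463 by limma), and Cox5a, which binds the enzyme on the matrix side, had 325 ± 43.9 FPKM in males and 354 ± 48.4 in females (adjusted p = 0.702).

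The tissue-restricted or hypoxia-linked forms took small shares of the FPKM of their pairs. Cox4i2, the form known from lung and from low oxygen, had 0.614, 1.28, 0.986, 1.75 and 1.01 FPKM in the males and 1.299, 1.95, 0.843, 1.34 and 1.13 FPKM in the females, at most 0.293% of the Cox4 sum, while Cox4i1 had 652 ± 67.6 FPKM in males and 754 ± 111 in females. Ndufa4l2, a hypoxia-induced relative of the complex IV subunit Ndufa4, had 2.27, 1.998, 2.06, 1.96 and 1.699 FPKM in the males and 1.39, 3.69, 1.13, 2.52 and 1.87 FPKM in the females, and Ndufa4 had 459.7 ± 62.2 FPKM in males and 496 ± 75.99 in females. Both minor forms were highest in female 2, and their adjusted p-values were 0.754 and 0.976. Cox7a2 had 319 ± 46.2 FPKM in males and 338 ± 55.4 in females and Cox7a2l, a supercomplex assembly factor, had 86.1 ± 9.23 FPKM in males and 89.5 ± 8.08 in females, with adjusted p-values of 0.842 and 0.83 by limma.

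Cox6b2, the testis form of Cox6b, was the complex IV gene of smallest p among those lower in females. It had 2.34, 2.98, 2.66, 3.51 and 5.396 FPKM in the males and 1.27, 4.83, 2.14, 0.481 and 1.203 FPKM in the females, from 4 to 38 reads per library. Females 1, 3, 4 and 5 lay below every male and female 2 was second highest of all. The log2 fold change was -1.03 (SE 0.47, adjusted p = 0.324 by limma), and without female 2 the adjusted p was 0.0704. Leaving out each library in turn, the log2 fold change ran from -1.43 to -0.66. As a share of the Cox6b sum it averaged 0.808% in males and 0.383% in females. Of the 4 testis germ cell genes, Prm1, Prm2 and Tnp1 had at most 3 reads in every library, and Ldhc had 1 to 6. The widely expressed Cox6b1 had 324 ± 47.7 FPKM in males and 388 ± 67.00 in females under ENSRNOG00000024309, and the second Cox6b1 row, ENSRNOG00000034161, is a block of 261 bases without introns and had 85.2 ± 11.7 FPKM in males and 98.1 ± 9.11 in females.

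Cox6a2 and Cox8b, the heart and skeletal muscle forms of their subunits, were high in the same 2 libraries. Cox6a2 had 0.136, 0.453, 0.146, 3.07 and 0.281 FPKM in the males and 0.502, 0.448, 0.499, 0.238 and 3.44 FPKM in the females, and Cox8b had 1.02, 0.506, 1.09, 4.26 and 0.628 FPKM and 0, 0.223, 0, 0.354 and 3.35 FPKM. Male 4 and female 5 held the highest values of both, with 30 and 26 reads of Cox6a2 and 28 and 17 of Cox8b, while the other libraries had at most 4 and 5 reads. The 5 muscle markers summed to 20.5 FPKM in male 4 and 24.5 in female 5, against 1.40 to 2.69 in the other 8 libraries, and Mb, myoglobin, had 230 and 210 reads there and at most 2 elsewhere; the part of muscle RNA in the Cox6a2 and Cox8b values was not tested. Of the 2 brown fat markers, Ucp1 had at most 1 read in any library, and Cidea had 15 to 72 reads, with the most in male 4 (6.40 FPKM). The adjusted p-values by limma were 0.81 for Cox6a2 and 0.382 for Cox8b (log2 fold changes 0.52 and -1.80), and without female 5 the Cox6a2 value was -0.04. Their widely expressed counterparts were far higher: Cox6a1 had 826 ± 99.3 FPKM in males and 1049 ± 206 in females (adjusted p = 0.33 by limma). The upstream window of Cox6a2 (GRCr8, chr1:192219717-192219966, minus strand) is shown as one without the letters of NRF-1, ETS or YY1 on either strand, and so has no capitals:
Cox6a2: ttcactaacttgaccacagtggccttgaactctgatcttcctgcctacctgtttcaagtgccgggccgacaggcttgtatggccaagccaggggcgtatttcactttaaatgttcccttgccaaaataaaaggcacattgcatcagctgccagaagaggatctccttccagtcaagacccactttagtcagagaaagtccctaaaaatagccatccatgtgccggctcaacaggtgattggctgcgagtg

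Complex V makes ATP, with a catalytic F1 head and a proton-conducting membrane part. All 16 of its member genes were tested, 15 had a log2 fold change above 0 and the median was 0.22. At an unadjusted p under 0.05, 4 (Atp5j, Atp5o, Atp5h and Atp5g1) were higher in females, beside 7.67% of all genes. The 5 F1 genes had a median of 0.15 and none at an unadjusted p under 0.05, and the other 11 had a median of 0.26. Atp5b had 1608, 1916, 1738, 1661 and 1463 FPKM in the males and 1532, 1243, 2067, 2415 and 1927 FPKM in the females. Female 2 was lowest and female 4 highest of the 10, so the female values enclosed all the male ones (log2 fold change 0.10, SE 0.20, adjusted p = 0.862 by limma). Atp5a1, the alpha subunit, had 987 ± 149.8 FPKM in males and 1064 ± 314 in females (adjusted p = 0.92) with the same 2 libraries at its ends.

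Atp5j, coupling factor 6 of the stalk, was the complex V gene of smallest p, and its upstream window is shown for that reason. The window (GRCr8, chr11:37375102-37375351, minus strand, RefSeq symbol Atp5pf) has the YY1 letters AAGATGGC 111 bases and the ETS letters CCGGAAG 84 bases before the start, in capitals:
Atp5j: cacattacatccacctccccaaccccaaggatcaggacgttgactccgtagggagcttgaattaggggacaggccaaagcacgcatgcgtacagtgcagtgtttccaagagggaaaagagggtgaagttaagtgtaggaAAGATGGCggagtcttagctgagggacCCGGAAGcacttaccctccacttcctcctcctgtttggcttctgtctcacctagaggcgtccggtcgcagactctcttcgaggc

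Atp5j had 146, 179.9, 144, 172 and 191 FPKM in the males and 185, 260.2, 198, 224 and 204 FPKM in the females. Female 1 was below male 5, the highest male, and female 2 was highest of all. The log2 fold change was 0.36 (SE 0.12, adjusted p = 0.159 by limma, exact permutation p = 0.0159, two-sided). Atp5j overlaps Gabpa, which encodes the DNA-binding subunit of GABP, on the opposite strand, and Gabpa itself had 8.67 ± 0.928 FPKM in males and 8.67 ± 0.622 in females. In all, 19 members overlap another annotated gene.

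The ring through which protons pass is built from a single protein made by 3 genes. Atp5g1 had 329, 399.5, 339, 352 and 348 FPKM in the males and 354, 375, 459, 519 and 433 FPKM in the females (log2 fold change 0.26, adjusted p = 0.317 by limma). Atp5g2 had 372 ± 54.04 FPKM in males and 399 ± 95.1 in females, and Atp5g3, the most abundant of the 3, had 564 ± 55.5 FPKM in males and 598 ± 177 in females. As shares of the sum of the 3, Atp5g1 averaged 27.5% in males and 30.7% in females, Atp5g2 28.8% and 28.0%, and Atp5g3 43.7% and 41.4%. Female 2 stood apart, with 38.1% from Atp5g1 and 33.5% from Atp5g3, while Atp5g3 gave 40.9% to 44.9% in the other 9 libraries.

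Atp5f1, a stator subunit, could not be read reliably. Its rows ENSRNOG00000016000 (208408890 to 208420163 on chromosome 2) and ENSRNOG00000046299 (208566385 to 208577146) have the same symbol and the same length of 2063 bases, so that reads could be split between them or dropped. The first had 1.95, 4.75, 10.1, 4.17 and 19.5 FPKM in the males and 29.1, 19.00, 21.1, 1.29 and 2.01 FPKM in the females, and the second had 2.61, 1.96, 2.35, 9.37 and 2.23 and 4.62, 3.24, 2.07, 2.38 and 1.89 FPKM. Neither row ordered the libraries by sex. Atpif1, the ATP synthase inhibitor, which is not a member, had 257 ± 69.4 FPKM in males and 364 ± 164 in females, with female 2 highest at 651 FPKM (log2 fold change 0.45, adjusted p = 0.454 by limma).

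**Figure D3:**
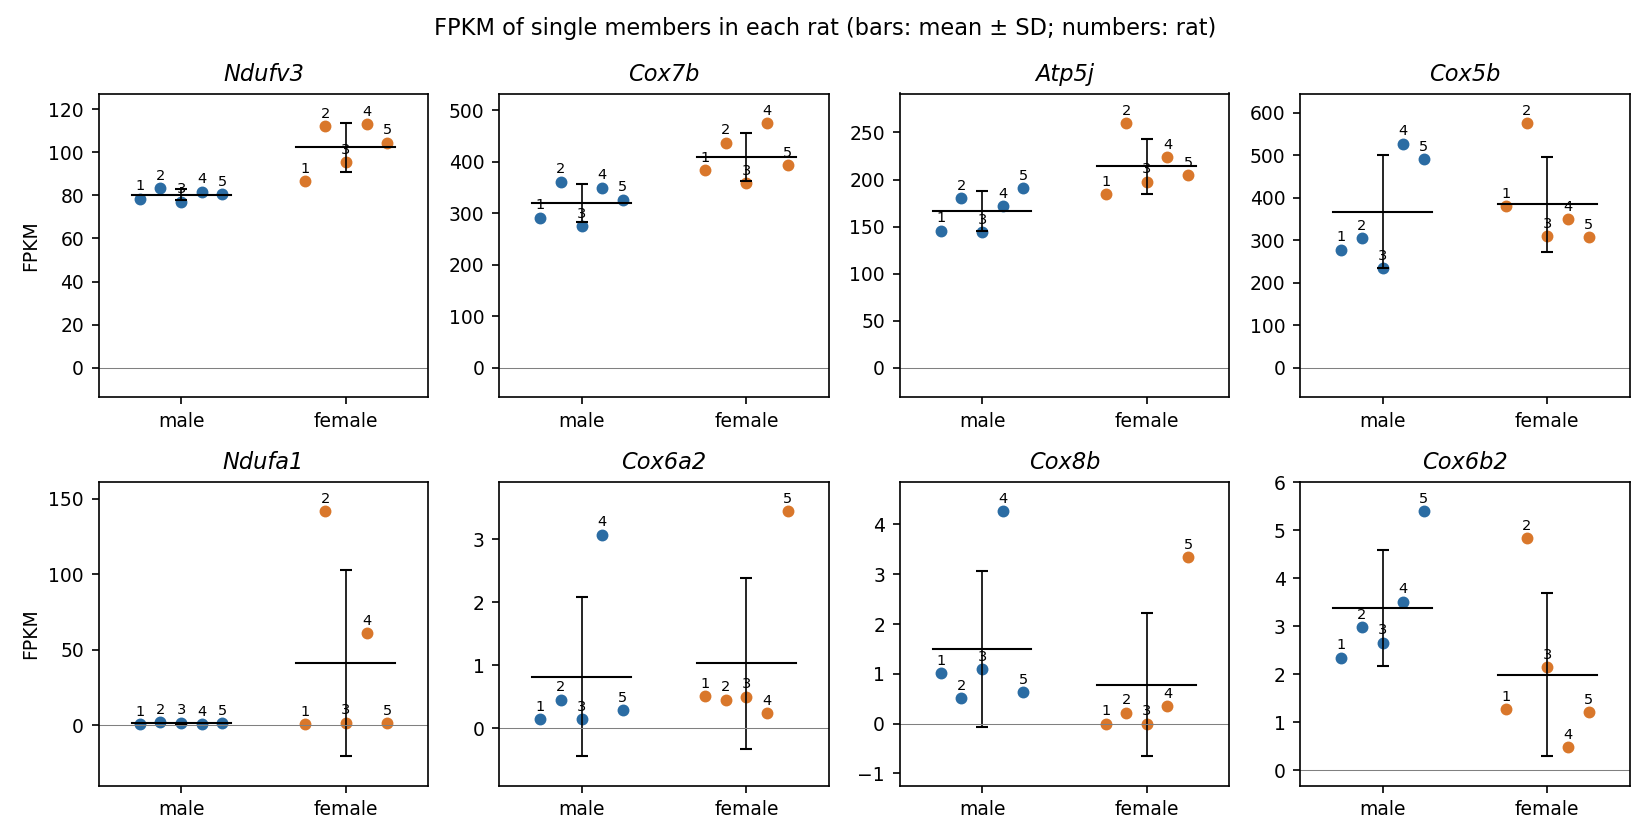
FPKM of 8 members in each rat, labelled by its number, blue for male and orange for female, with the mean as a line and ± SD as bars (bars that reach below 0 show only that the SD exceeds the mean). Ndufv3 separates the sexes, the Ndufa1 row, not read as the level of its gene, is high in females 2 and 4 alone, and Cox6a2 and Cox8b are high in male 4 and female 5.

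Across libraries the members tended to be high or low together. Female 4 was the highest of the 10 libraries for 60 of 88 members (68.2%, beside 14.5% of all genes), and the median member there lay 0.32 above its own mean on the log2 scale. Male 1 was the lowest for 21 members (23.9%, beside 11.1% of all genes) and male 3 for 22 (25%, beside 9.02%), and their median deviations were -0.20 and -0.18. Female 4 also had the highest proximal tubule marker sum (7982 FPKM) and the lowest sums of the fibroblast (71.1 FPKM), macrophage (40.1 FPKM), T cell (15.7 FPKM) and B cell (0.811 FPKM) markers, whose part in this was not tested. Without female 4 the median log2 fold change of the members was 0.10, with 67 of 88 above 0 and 5 higher at an unadjusted p under 0.05 in place of 15. Without male 1 or male 3 that count was 6. With all libraries 7.67% of all genes were higher at that line. Their share without 1 library was not counted, so these smaller counts have no matching background.

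Female 2 was at an extreme for the members about as often as for all genes. It was the highest library for 18 of them (20.5%, beside 18.8% of all genes) and the lowest for 17 (19.3%, beside 18.5%). Among the members highest there were the Ndufa1 row, Ndufa6, Uqcrb, Cox6a1, Atp5e and Atp5j, and among those lowest were Sdha, Sdhc, Cyc1, Atp5a1, Atp5b and Atp5g3, named after their values were seen. Female 2 was also the library with 26.8% of its reads on the mitochondrial chromosome. Without female 2 the median log2 fold change was 0.21.

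Cox5b and Atp5e, named after their values were seen, followed yet another order. Cox5b, which binds zinc in complex IV, had 278, 306, 235, 527 and 491 FPKM in the males and 381, 577, 309.8, 349.8 and 307 FPKM in the females. Atp5e, the epsilon subunit of F1, had 490.3, 605, 462, 923 and 790.4 and 902, 1226, 628, 754 and 653 FPKM. Both were highest in males 4 and 5 and females 1 and 2. No other member had these 4 libraries on top, and 2.25% of all genes did, beside 2.27% of the members. The adjusted p-values by limma were 0.898 and 0.523.

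**Figure D4:**
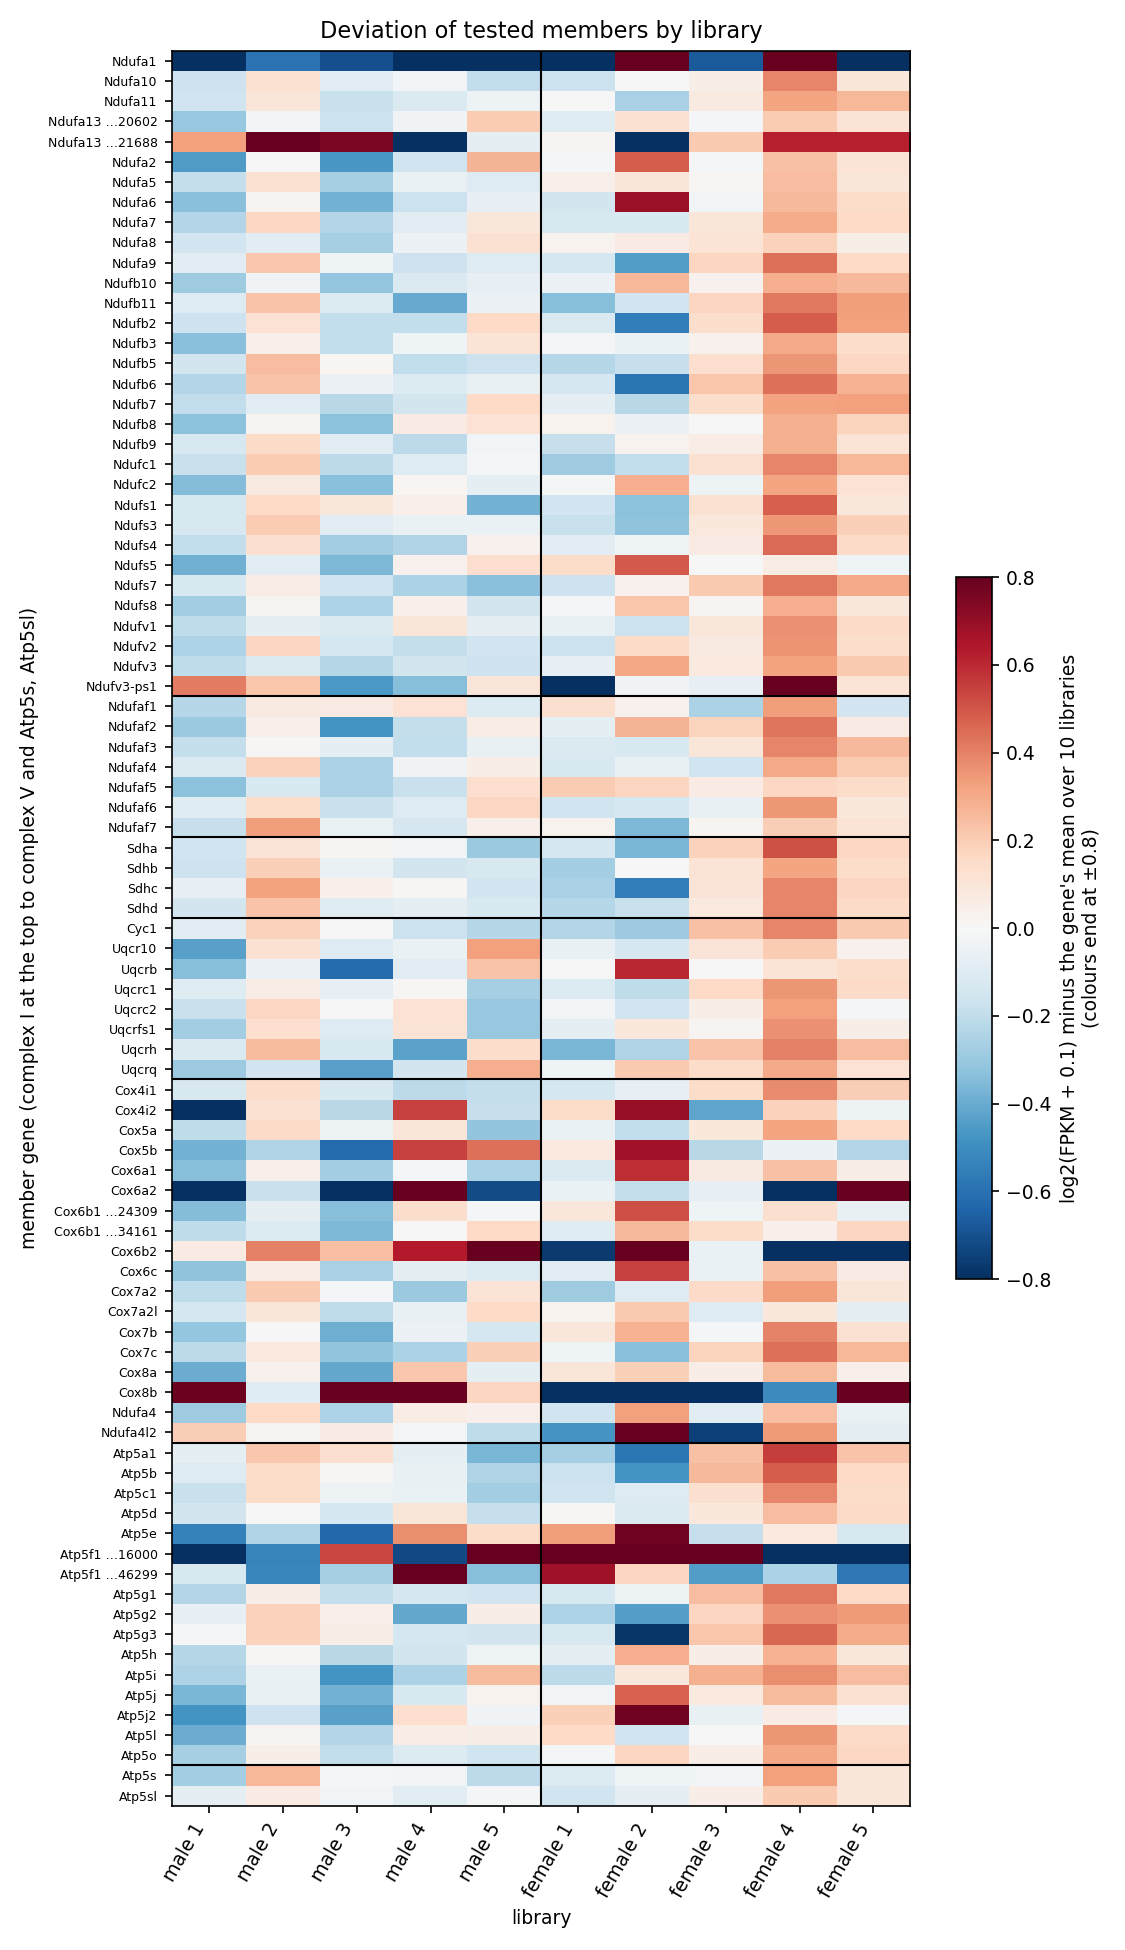
Deviation of log2(FPKM + 0.1) from the gene's own mean over the 10 libraries, with the tested members except 1 as rows grouped by complex (black lines), libraries as columns, males left of the vertical line, and colours that end at ± 0.8. The column of female 4 is red for most members, those of males 1 and 3 are mostly blue, and female 2 mixes strong red and strong blue.

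The 13 subunits encoded in the mitochondrion itself, which join the nuclear ones in complexes I, III, IV and V, all had a log2 fold change above 0, with a median of 0.25, and none had an unadjusted p under 0.05. Their summed FPKM was 146146 to 179280 in males and 148485 to 296070 in females, the highest being female 2 and the next female 4 (222732). Females 1, 3 and 5 (152462, 176113 and 148485) lay within the male range. The fold changes of these subunits without female 2 were not examined. Of 15 citric acid cycle enzymes 14 had a log2 fold change above 0, with a median of 0.12 and none at an unadjusted p under 0.05. Citrate synthase, Cs, had 83.2 ± 7.54 FPKM in males and 87.4 ± 9.25 in females. Of 73 tested mitochondrial ribosomal protein genes, which translate the mitochondrial messages, 70 were above 0 with a median of 0.16, none was called, 16 were higher at an unadjusted p under 0.05 (beside 7.67% of all genes) and 4 were higher without overlap (beside 2.5%).

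Assembly factors, carriers and regulators were counted in the same way. Of the 15 complex IV assembly factors 11 were above 0 (median 0.07), and of the 13 for complexes II, III and V 10 were (median 0.09), with none called in either list. Of 6 tested ADP/ATP carriers and uncoupling proteins 3 were above 0. Both rows with the symbol Cycs, cytochrome c, had lower means in females: 432 ± 80.5 FPKM in males and 297 ± 43.5 in females under ENSRNOG00000010452 (log2 fold change -0.53, adjusted p = 0.101 by limma) and 304 ± 71.3 FPKM in males and 210.5 ± 84.8 in females under ENSRNOG00000032885 (log2 fold change -0.60, adjusted p = 0.316). Whether the Cycs rows share reads could not be resolved from the FPKM, so they were not read as independent measures. Among 17 regulators of mitochondrial biogenesis, 10 were above 0 and 1 was called, higher in females (beside 1.26% of all genes). Esrrb, an orphan nuclear receptor related to the oestrogen receptors, had 2.84, 2.07, 2.66, 2.54 and 3.38 FPKM in the males and 4.94, 3.44, 5.19, 5.904 and 4.44 FPKM in the females. Every female lay above every male (log2 fold change 0.80, SE 0.17, adjusted p = 0.0299 by limma). Its relatives Esrra and Esrrg had higher levels than Esrrb and were not called. Esrra had 43.4 ± 4.56 FPKM in males and 44.2 ± 14.7 in females (log2 fold change -0.05, adjusted p = 0.953 by limma). Esrrg had 12.0 ± 2.43 FPKM in males and 13.3 ± 2.64 in females (log2 fold change 0.15, adjusted p = 0.740 by limma). Ppargc1a, the coactivator that drives mitochondrial biogenesis, had 13.6 ± 2.44 FPKM in males and 16.8 ± 2.78 in females (adjusted p = 0.33), its relative Ppargc1b had 2.89 ± 0.353 FPKM in males and 2.29 ± 0.508 in females (log2 fold change -0.33, adjusted p = 0.324), Nrf1 had 6.91 ± 0.673 FPKM in males and 6.58 ± 0.5905 in females (adjusted p = 0.801) and Tfam, the mitochondrial transcription factor, had 30.9 ± 2.97 FPKM in males and 33.2 ± 2.04 in females (adjusted p = 0.611).

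The 89 member symbols were matched to RefSeq, and 76 had an upstream window of 250 bases before to 50 bases after the start in build GRCr8. Each motif was searched as plain letters on both strands. The NRF-1 letters GCGCANGCG stood in 22.4% of the member windows and in 5.8% of all 33469 windows, and the ETS letters CCGGAAG in 27.6% and 8.75%. The YY1 letters AAGATGGC stood in 18.4% and 3.17%, and at least 1 of these 3 motifs in 55.3% and 15.7%. The ERR letters TCAAGGTCA, bound by the oestrogen-related receptors, stood in 2.63% (only 2 of the 76 member windows) and 0.433%, and the GC box GGGCGG in 42.1% and 33.1%. A match describes the letters of a window and does not show a bound site. Of the windows printed above, those of Ndufv3, Atp5j and Ndufa6 hold such letters and that of Cox6a2 does not.

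**Figure D5:**
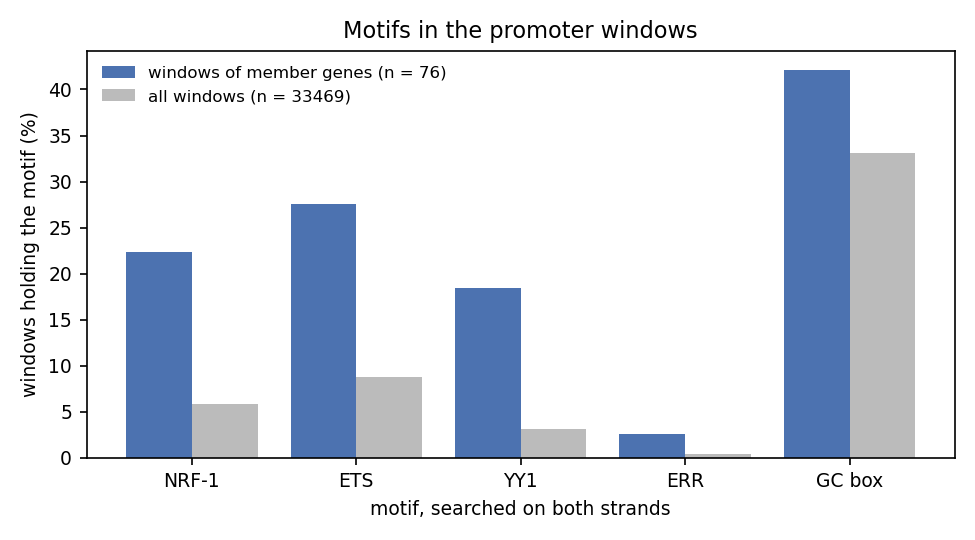
Percentage of RefSeq windows (250 bases before to 50 after the start) that hold each motif on either strand, for 76 member genes in blue and all 33469 windows in grey. The blue bar is higher for all 5 motifs, at 22.4% beside 5.8% for NRF-1 and 27.6% beside 8.75% for ETS.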

How the data were processed

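The data are RNA-seq libraries of kidney cortex, 1 per rat, and the sex in the sample labels gave the groups (5 rats each). Per the study's methods and the submitters' processing notes, Novogene sequenced the libraries, and fastp, HISAT2 2.0.5 (to Ensembl Rnor_6.0), StringTie 1.3.3b and featureCounts 1.5.0-p3 were used. The authors deposited FPKM for 32545 genes; whether strand was used in counting is not given in the sources used here. Dividing by what a single read adds at each gene's length turned 100% of the values into whole reads (tolerance 0.01 read). The median ratio between libraries was 1.01 in all 10, so the FPKM already carried median-ratio scaling.

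limma 3.58.1 in R 4.3.3 (lmFit, eBayes with trend) was fitted on log2(FPKM + 0.1) over the 17631 genes whose mean reached 0.1 FPKM, with Benjamini-Hochberg adjustment over all of them and a threshold of 0.05. Fold changes are on the log2(FPKM + 0.1) scale, which understates those of low genes. Single genes had an exact two-sided permutation test of the mean FPKM, whose smallest p is 0.00794. Alternatives were limma-voom on the recovered reads, other scalings, pseudocounts and filters, a replicate block and leaving out each library; counting members at an unadjusted p was added after seeing the data. Tables and figures were made in Python 3.11.15 (scipy 1.17.1, numpy 2.4.6, pandas 2.3.3), and the fit was tested on simulated data. Sums, shares and motifs are descriptions. The members, lists and alternatives were chosen with earlier results of these data known. Named members were those called, the 5 of smallest p in each direction, the highest and lowest of each complex, the isoform groups and a set of core subunits; Ndufa1, Ndufa6, Cox5b, Atp5e and those named by library were added after their values were seen. 1 gene of this rule is not reported here.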

Additional observations from a re-analysis of the deposited data

Results flagged for a closer look

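Among 100 groups of 5 libraries (50 genes or sums in each sex), 11 had a highest library set apart from the other 4 by more of the group's range than Dixon's 95% critical value of 0.71 allows; chance flags about 1 in 20 groups, and the members share their libraries.

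Male 2 stood above the other males for Sdhb (299.7 FPKM, next 253), Sdhd (284 FPKM, next 229) and Cox4i1 (769 FPKM, next 639.8). Female 2 stood above the other females for Uqcrb (51.3 FPKM, next 37.2), Cox5b (577 FPKM, next 381) and Cox6b1 under ENSRNOG00000024309 (502 FPKM, next 383). Male 4 stood above the other males for Cox6a2 (3.07 FPKM, next 0.453), Cox8b (4.26 FPKM, next 1.09) and Atp5f1 under ENSRNOG00000046299 (9.37 FPKM, next 2.61). Female 5 stood above the other females for Cox6a2 (3.44 FPKM, next 0.502) and Cox8b (3.35 FPKM, next 0.354). The values of male 4 and female 5 for Cox6a2 and Cox8b stand beside their muscle marker sums of 20.5 and 24.5 FPKM.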

How the results depend on the processing

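Across the alternatives the count of members called was 0 in either direction, except that 1 member was called higher without male 5 (Ndufaf5) and 1 without female 1 (Ndufv3), so the count without 1 library ran from 0 to 1. The count of members higher at an unadjusted p under 0.05, 15 with all libraries, ran from 5 (without female 4) to 21 (without female 1), and was 6 without male 1 and 6 without male 3. The share of all genes at that line, 7.67%, was counted for the limma fit on all libraries and for none of these alternatives. The count lower at that line, 0 with all libraries, was 1 under equal totals outside the mitochondrial chromosome, 1 by limma-voom on the recovered reads, and 0 to 1 without 1 library (1 without female 2 and 1 without female 5, where it was Cox8b; in the other cases it was Cox6b2). The median log2 fold change of the members was 0.08 after quantile normalization, 0.10 under equal totals (where that of all genes was -0.05) and 0.10 to 0.21 without 1 library. The log2 fold changes of Ndufs1, Sdhc, Sdhd, Cox5b, Cox6a2, Ndufa4l2, Atp5a1, Atp5b, Atp5g2, Atp5g3, Ndufa13 under ENSRNOG00000021688 and Atp5f1 under ENSRNOG00000046299, none of them called, changed sign when 1 library was left out. No other alternative changed the call of a named member, and the cause of these changes was not tested.

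Replicate numbers are shared between the sexes, but deviations of same-numbered rats correlated at -0.10 to 0.07, so the numbers were not read as pairs. With the replicate block no member was called, 16 were higher at an unadjusted p under 0.05, the median was 0.15 and the smallest adjusted p was 0.131 (Ndufv3, limma); over all genes 231 were called in place of 424. With limma-voom 504 genes were called. FPKM of low members such as Cox8c rest on single reads, and the Atp5f1 rows could not be resolved from the FPKM.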
